A study of Mus musculus with 6 samples.

Results

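The ErbB receptors are cell surface tyrosine kinases, and the EGF-family ligands are growth factors that bind them. Most of the ligands are made as membrane-anchored precursors and act on neighboring cells once they are cut free. A bound ligand brings receptors together in pairs, which then signal through the RAS-ERK and PI3K-AKT pathways. In the prostate, as in other epithelia, this signaling supports growth, and it has long been studied in prostate cancer for its crosstalk with the androgen receptor. The 9 genes described here were taken by Ensembl identifier from the 60649 genes of the count table. They are 3 receptors, EGFR (ENSG00000146648), ERBB2 (ENSG00000141736) and ERBB3 (ENSG00000065361), and 6 ligands, TGFA (ENSG00000163235), HBEGF (ENSG00000113070), AREG (ENSG00000109321), EREG (ENSG00000124882), BTC (ENSG00000174808) and NRG1 (ENSG00000157168). All 9 were among the 24545 genes with enough reads to be tested.

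The tumors were grown from LAPC-4, a prostate cancer line of human origin that still responds to androgen. The cells were mixed with Matrigel and injected into the flank of young male SCID mice. These hosts lack B and T cells but keep innate immune cells, vessels and stroma. All mice ate the HiGI diet first and were randomized when tumors averaged 200 mm3, so that the LoGI mice were switched and the HiGI mice were not. Carbohydrate supplied the same share of energy in both Western diets and came mainly from sucrose in the HiGI diet and from the high-amylose starch Hylon-VII in the LoGI diet. Tumors were taken at an equal end volume after a short fast. RNA-sequencing covered 3 HiGI tumors (16, 20 and 26) and 3 LoGI tumors (19, 27 and 28), each from its own mouse. The sample records name mouse as the organism, while the counted genes are human. Defining markers of LAPC-4 and of host cells were not analysed here, because the symbols of human genes were not looked up.

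Library totals ran from 18749813 to 21550812 reads and overlapped between diets. TMM factors lay between 0.964 and 1.03. On the first principal component of log2 CPM (the log2 of reads as a fixed share of the library), with 51.3% of the variance, the HiGI tumors lay between 43.7 and 57.4 and the LoGI tumors between -55.2 and -50.5. On the second, with 14.7%, HiGI tumor 26 stood at -55.1 and the other tumors between -9.39 and 35.7. The fits of TGFA, EREG, NRG1 and HBEGF are therefore also given without tumor 26. Normalized counts below are reads scaled by TMM to the mean library size. They can be compared between tumors for one gene, but not between genes, since gene length was not used.

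Of the 6 ligands, 3 fell in LoGI tumors (TGFA, EREG and NRG1) and 0 rose. EREG and NRG1 had 0 LoGI reads. Of the 3 receptors, 0 passed the threshold in either direction. Genes were called where edgeR's quasi-likelihood F-test gave an adjusted p (Benjamini-Hochberg, over all genes tested) under 0.05 and the diets differed at least 2-fold. By this rule 3.38% of all genes tested were lower and 0.0733% were higher in LoGI tumors. At an unadjusted p under 0.05, HBEGF joined the lower ligands and 0 receptors passed, while 8.98% of all genes tested were lower and 4.33% higher by that rule. The edgeR exact test and the DESeq2 Wald test also gave 3 lower ligands and 0 receptors, and limma-voom gave 2 lower ligands and 0 receptors. By these tests in turn, 3.86%, 3.15% and 2.93% of all genes tested were lower, and 0.13%, 0.0611% and 0.053% were higher. These tests shared one filter on low counts, which EREG and NRG1 passed through their HiGI reads alone. Stricter filters, given below, removed both before the test, and 1 lower ligand, TGFA, was left. The median log2 fold change (LoGI over HiGI) was -1.43 for the ligands, 0.06 for the receptors and 0.00335 for all genes tested. The ligand median includes EREG and NRG1, so it does not show a decrease shared by the ligands. Apart from these, TGFA stood at -2.37, HBEGF at -0.48, AREG at -0.47 and BTC at 0.55. In bulk tumors, fewer cells of a type and less RNA per cell cannot be told apart.

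**Figure D1:**
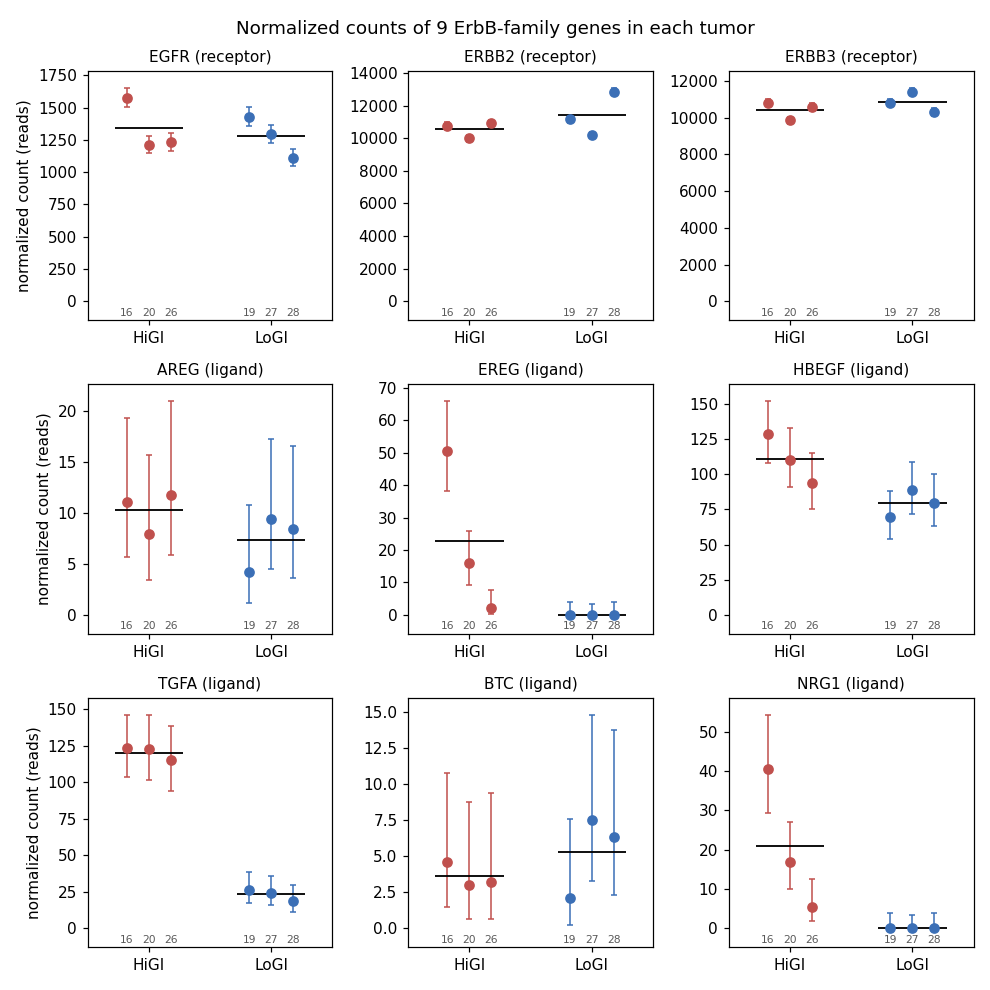
Normalized count in reads (y axis, linear) of each gene in the 3 HiGI (red) and 3 LoGI (blue) tumors, with tumor numbers along the bottom. Vertical bars are 95% Poisson intervals, which cover counting error only, and horizontal lines are diet means. TGFA, EREG, NRG1 and HBEGF are lower in every LoGI tumor than in any HiGI tumor, and the other 5 genes overlap between diets.

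TGFA, which encodes transforming growth factor alpha, a ligand of EGFR, had the most reads of the 3 ligands that fell. HiGI tumors 16, 20 and 26 held 134, 123 and 108 TGFA reads, and LoGI tumors 19, 27 and 28 held 25, 26 and 18. All HiGI tumors lay far above all LoGI tumors, and within each diet the values were close. The normalized count was 120 ± 4.62 (SD, n = 3) in HiGI vs 23.2 ± 3.80 (SD, n = 3) in LoGI tumors, a 5.19-fold difference. On the log2 scale this was -2.37, with a standard error of 0.28 in DESeq2 and an adjusted p of 2.32e-06 in edgeR. The limma-voom 95% interval ran from -2.86 to -1.86. By p, TGFA ranked 171 among the 24545 genes. Its coefficient of variation was 3.84% between HiGI tumors, below the 9.07% that counting error alone gives at this number of reads, and 16.4% between LoGI tumors, against 20.9% from counting. The spread between tumors of one diet was thus no larger than counting error. Without tumor 26 the log2 fold change was -2.40 (adjusted p = 1.41e-06, edgeR).

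EREG encodes epiregulin, a ligand that binds EGFR and ERBB4. HiGI tumors 16, 20 and 26 held 55, 16 and 2 EREG reads, and LoGI tumors 19, 27 and 28 held 0, 0 and 0. No tumor of the LoGI diet had a read, but HiGI tumor 26 was itself at the limit of what these libraries can show, taken here as 3 reads per library. At these depths 3 reads correspond to 0.139 to 0.160 CPM. The normalized count in HiGI tumors was 22.9 ± 25.0 (SD, n = 3), which is at least 7.63-fold above a level of 3 reads per library. This bound rests on tumor 16, and without that tumor it was 3.01-fold. EREG fell in LoGI tumors with an adjusted p of 0.0107 in edgeR. Its fitted log2 fold change was -7.55 in edgeR and -6.94 (standard error 2.14) in DESeq2. The edgeR value is set by the prior count added to empty samples, and a prior of 2 gave -3.65. Without tumor 26 the adjusted p was 8.90e-05 (edgeR), and in limma-voom on all 6 tumors it was 0.157, which is not past the threshold. The largest HiGI value was 23.8 times the smallest, and the coefficient of variation was 109%, against 20.3% from counting alone.

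NRG1 encodes neuregulin-1, a ligand of ERBB3 and ERBB4. HiGI tumors 16, 20 and 26 held 44, 17 and 5 NRG1 reads, and LoGI tumors 19, 27 and 28 again held 0, 0 and 0. The HiGI tumors kept the order seen for EREG, with tumor 16 highest and tumor 26 lowest, and here tumor 26 was above the 3-read limit. The normalized count in HiGI tumors was 20.9 ± 17.9 (SD, n = 3), at least 6.97-fold above the same level, or 3.71-fold without tumor 16. NRG1 fell in LoGI tumors with an adjusted p of 0.00304 in edgeR and 0.0364 in limma-voom. Its fitted log2 fold change was -7.42 in edgeR and -6.81 (standard error 1.37) in DESeq2, and a prior of 2 in edgeR gave -3.53. Without tumor 26 the adjusted p was 7.44e-05 (edgeR). The coefficient of variation between HiGI tumors was 85.7%, against 21.3% from counting. Both genes carried few reads, 73 for EREG and 66 for NRG1, all of them in HiGI tumors. Both therefore passed the filter on low counts through the HiGI tumors alone, and the size of their decrease is known only as a lower bound.

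**Figure D2:**
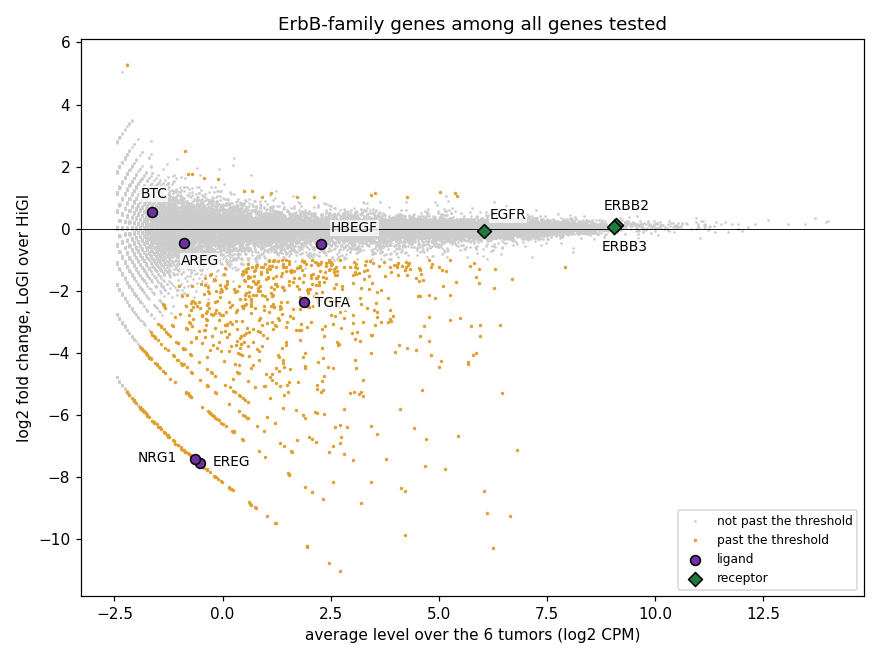
Log2 fold change of LoGI over HiGI tumors (y axis) against the average level over the 6 tumors in log2 CPM (x axis) for the 24545 genes tested, with those past the threshold in orange and the 9 genes labeled (ligands as circles, receptors as diamonds). TGFA lies at -2.37, EREG and NRG1 lie on the lower edge formed by genes with 0 LoGI reads, and the 3 receptors lie between -0.07 and 0.11.

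HBEGF encodes heparin-binding EGF-like growth factor, a ligand of EGFR and ERBB4, and had the most reads of the 6 ligands over the 6 tumors (576). HiGI tumors 16, 20 and 26 held 140, 111 and 88 HBEGF reads, and LoGI tumors 19, 27 and 28 held 66, 95 and 76. After scaling, the lowest HiGI tumor (93.7 in tumor 26) was just above the highest LoGI tumor (89.0 in tumor 27). The normalized count was 111 ± 17.6 (SD, n = 3) in HiGI vs 79.4 ± 9.87 (SD, n = 3) in LoGI tumors, or -0.48 on the log2 scale, with a standard error of 0.23 in DESeq2. This did not pass the threshold in edgeR, where the p from the fit over all genes was 0.0236 before and 0.246 after adjustment. The limma-voom 95% interval, not adjusted for the number of genes, ran from -0.89 to -0.07. Without tumor 26 the log2 fold change was -0.59 (adjusted p = 0.124, edgeR). With HBEGF, 4 of the 9 genes had LoGI values that all lay below the HiGI values, an arrangement found for 10.9% of all genes tested, and 0 of the 9 had the reverse, found for 7.59%. For EREG and NRG1, with 0 LoGI reads, any read in each HiGI tumor gives this arrangement. In EREG it rested on 2 reads in tumor 26. The count of 4 is therefore a description and not separate support.

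AREG and BTC were close to the lower limit of detection. AREG encodes amphiregulin, a ligand of EGFR that is induced by androgen in some prostate cells. HiGI tumors 16, 20 and 26 held 12, 8 and 11 AREG reads, LoGI tumors 19, 27 and 28 held 4, 10 and 8, and the diets overlapped. On the log2 scale the difference was -0.47, with a standard error of 0.68 in DESeq2, an adjusted p of 0.785 in edgeR and a limma-voom 95% interval from -1.48 to 0.50. BTC encodes betacellulin, which binds EGFR and ERBB4. The same HiGI tumors held 5, 3 and 3 BTC reads, the same LoGI tumors held 2, 8 and 6, and the diets again overlapped. On the log2 scale the difference was 0.55, with a standard error of 0.96 in DESeq2, an adjusted p of 0.835 in edgeR and an interval from -0.98 to 1.75. The interval of AREG takes in a decrease of more than 2-fold but not a 2-fold increase, and that of BTC takes in an increase of more than 2-fold. From counting error alone, the 95% interval of the LoGI to HiGI ratio was 0.399 to 1.29 for AREG and 0.647 to 3.54 for BTC.

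Within each tumor, the 6 ligands were then compared by their share of ligand reads. TGFA took 34.4%, 44.2% and 49.8% of the reads of the 6 ligands in HiGI tumors 16, 20 and 26, and 25.8%, 18.7% and 16.7% in LoGI tumors 19, 27 and 28. The widest of the 95% Clopper-Pearson intervals for these 6 shares was 17.4% to 35.7%, in tumor 19. HBEGF took 35.9%, 39.9% and 40.6% in the HiGI tumors and 68.0%, 68.3% and 70.4% in the LoGI tumors. There were thus 0.815 to 1.04 HBEGF reads for each TGFA read in HiGI tumors and 2.64 to 4.22 in LoGI tumors, without overlap. The larger HBEGF share is not a rise in HBEGF, whose mean normalized count was 111 in HiGI and 79.4 in LoGI tumors. The ratio uses the same TGFA reads as the call above and is not separate support. EREG and NRG1 took 14.1% and 11.3% of the ligand reads in HiGI tumor 16, 5.76% and 6.12% in tumor 20, and 0.922% and 2.30% in tumor 26. Summed over the 6 ligands, the normalized count was 359, 277 and 231 in HiGI tumors 16, 20 and 26 and 102, 130 and 114 in LoGI tumors 19, 27 and 28. Without TGFA the sums were 236, 154 and 116 in the HiGI tumors and 75.6, 106 and 94.6 in the LoGI tumors, so that the diets came close but did not overlap. The gap lay between tumors 26 and 27, and no interval was computed for the sums. They still included EREG and NRG1, which had 0 LoGI reads, so they do not show a decrease shared by the other ligands. These sums and shares count reads, not molecules, and longer transcripts weigh more in them.

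**Figure D3:**
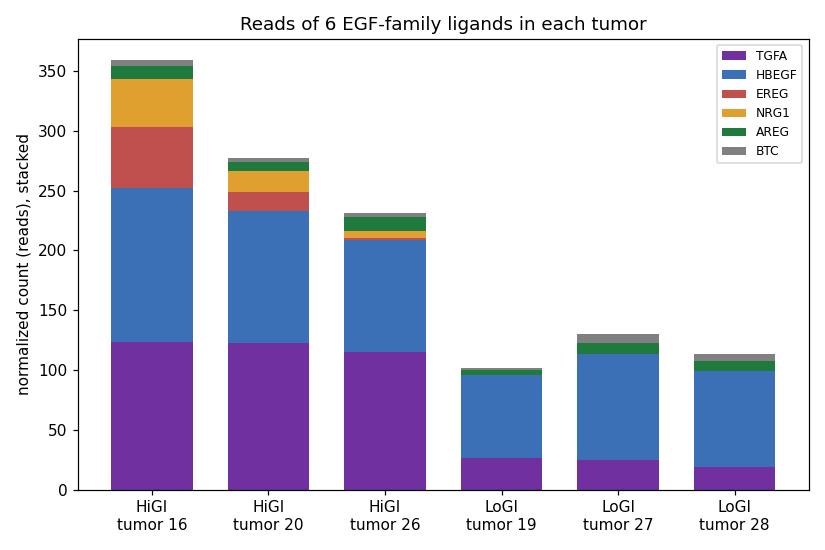
Normalized counts in reads of the 6 ligands (y axis, stacked from 0) in each of the 6 tumors (x axis). The stacks reach 231 to 359 in HiGI and 102 to 130 in LoGI tumors, the TGFA part is smaller in every LoGI tumor, and EREG and NRG1 appear in HiGI tumors alone.

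The receptors were read far more deeply than their ligands. ERBB2, which has no known ligand of its own and serves as a pairing partner, was read 11713, 10029 and 10250 times in HiGI tumors 16, 20 and 26, and LoGI tumors 19, 27 and 28 held 10638, 10894 and 12233 reads. The diets overlapped, and tumor 28 was the highest. After scaling, ERBB2 stood at 10561 ± 497 (SD, n = 3) in HiGI vs 11414 ± 1345 (SD, n = 3) in LoGI tumors. On the log2 scale the difference was 0.11, with a standard error of 0.10 in DESeq2, an adjusted p of 0.711 in edgeR and a limma-voom 95% interval from -0.07 to 0.29. ERBB3, a receptor for neuregulins with little kinase activity of its own, was read 11762, 9893 and 9951 times in the same HiGI tumors and 10309, 12192 and 9813 times in the same LoGI tumors. Its diets also overlapped, with tumor 27 highest. Its normalized count was 10425 ± 506 (SD, n = 3) vs 10856 ± 553 (SD, n = 3), or 0.06 on the log2 scale, with a standard error of 0.09 in DESeq2, an adjusted p of 0.857 in edgeR and an interval from -0.09 to 0.21.

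EGFR, the receptor for TGFA, AREG, EREG, HBEGF and BTC, had fewer reads than the other two receptors. HiGI tumors 16, 20 and 26 held 1713, 1217 and 1159 EGFR reads, and LoGI tumors 19, 27 and 28 held 1361, 1379 and 1057. The highest value was in HiGI tumor 16 and the lowest in LoGI tumor 28, and LoGI tumors 19 and 27 lay above HiGI tumors 20 and 26, so that the diets overlapped. The normalized count was 1341 ± 204 (SD, n = 3) in HiGI vs 1278 ± 159 (SD, n = 3) in LoGI tumors. On the log2 scale the difference was -0.07, with a standard error of 0.13 in DESeq2, an adjusted p of 0.891 in edgeR and a limma-voom 95% interval from -0.33 to 0.19. For none of the 3 receptors did this interval reach a 2-fold difference in either direction. An interval from counting error alone put the LoGI to HiGI ratio of EGFR between 0.906 and 0.990, but the tumors varied by more than counting. The coefficient of variation of EGFR was 15.2% in HiGI and 12.5% in LoGI tumors, against 2.71% and 2.81% from counting. For ERBB2 it was 4.71% and 11.8%, and for ERBB3 4.85% and 5.09%, against less than 1% from counting in each case.

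The shares of the receptors overlapped between diets. EGFR took 6.80%, 5.76% and 5.43% of the reads of the 3 receptors in HiGI tumors 16, 20 and 26, and 6.10%, 5.64% and 4.58% in LoGI tumors 19, 27 and 28. The LoGI tumors differed more from one another in the shares of ERBB2 and ERBB3. These shares make up most of the receptor reads, so a larger share of one goes with a smaller share of the other. The normalized count of ERBB3 itself varied alike, by 4.85% in HiGI and 5.09% in LoGI tumors (coefficient of variation). ERBB3 took 46.2%, 49.8% and 42.5% of receptor reads in LoGI tumors 19, 27 and 28, against 46.6% to 46.8% in the HiGI tumors. For HiGI tumors 16, 20 and 26 the ligand reads equaled 1.55%, 1.32% and 1.02% of the receptor reads. For LoGI tumors 19, 27 and 28 they equaled 0.435%, 0.568% and 0.467%. The HiGI values were all above the LoGI values, while the normalized receptor sums overlapped (21061 to 23182 vs 22924 to 24295). The ligand reads include those of TGFA, EREG and NRG1 called above, so the gap in these percentages is not separate support. These percentages cover the 6 ligands and 3 receptors chosen here, and not the whole family. ERBB4, for example, was not among them.

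**Figure D4:**
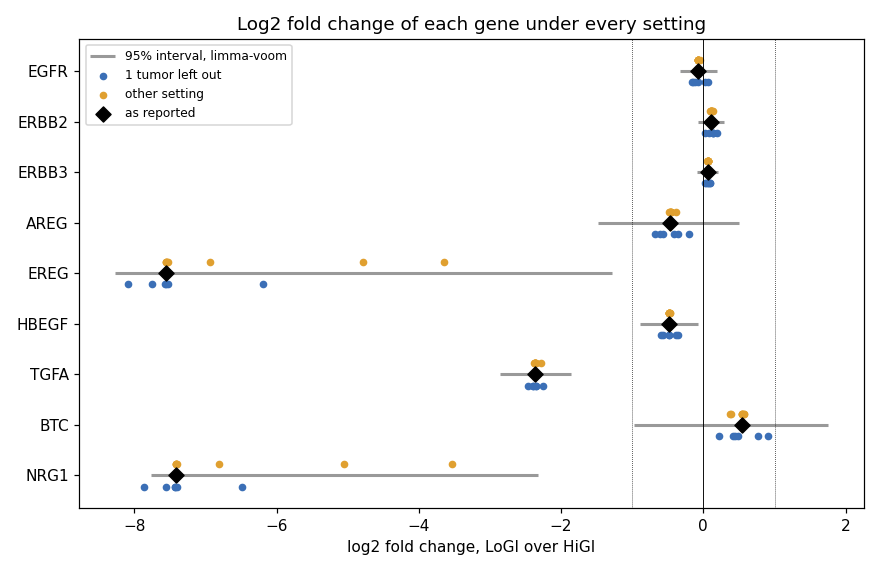
Log2 fold change of LoGI over HiGI tumors (x axis) for each gene (y axis), as reported (black diamonds), with 1 tumor left out (blue), in the other settings (orange) and as the limma-voom 95% interval (gray lines); dotted lines mark 1 and -1. TGFA stays between -2.46 and -2.25 across these settings, and the 3 receptors stay within -0.16 to 0.19. The fitted values of EREG and NRG1 stay below -3 in the settings that tested them, while their size varies. Their limma-voom intervals, not adjusted for the number of genes, reach up to -1.28 and -2.32, and EREG was not called by limma-voom (adjusted p = 0.157).

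The 3 ligands that fell kept their calls in each of the 6 fits that left out 1 tumor. For TGFA the adjusted p ran from 1.41e-06 to 5.41e-05 in these fits, and for NRG1 from 7.44e-05 to 0.0173. For EREG it ran from 8.90e-05 to 0.0499, with the largest values, 0.0498 and 0.0499, when LoGI tumor 19 or LoGI tumor 27 was left out.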

How the data were processed

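RNA was sequenced from 6 LAPC-4 xenograft tumors. Per the study's methods, BBMap was used to discard reads that matched mouse alone, and STAR with RSEM placed the remainder on human GENCODE genes (GRCh38.p13). The authors deposited unnormalized whole-number counts per gene; how RSEM estimates became whole is not given in the sources used here. The sample records give the diets as the codes hgw and lgw, read as HiGI and LoGI from the treatment protocol. Columns were matched by sample title, which also gave the tumor numbers. The 9 genes were taken by Ensembl identifier, all are named in the text, and they and the lists were chosen with earlier results of these data known. Symbols were not checked against an annotation, and other pathway genes, cell type markers, gene lengths and sequences were not analysed here.

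Genes with at least 10 reads over the 6 tumors were fitted in edgeR 4.0.16 (R 4.3.3) with TMM and the two-sided quasi-likelihood F-test. Genes were called at a Benjamini-Hochberg adjusted p under 0.05 with a log2 difference of 1 or more in size. Standard errors came from DESeq2 1.42.0 and 95% intervals from limma-voom (limma 3.58.1). Each test was tried on simulated data. Alternatives covered normalization, test, filter, prior count and leaving out each tumor. Tumors held 18749813 to 21550812 reads.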

Additional observations from a re-analysis of the deposited data

How the results depend on the processing

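Over the 10 other settings, the number of lower genes among the 9 (3) became 1 with edgeR's filterByExpr and 1 with at least 10 reads required in every tumor. Both filters removed EREG, NRG1, AREG and BTC before the test, and left TGFA called. With limma-voom EREG kept its direction (log2 fold change -4.78) but not its call (adjusted p = 0.157). The cause was not tested. In every setting 0 of the 9 genes were higher, and with 1 tumor left out the number of lower genes stayed at 3. The share of all genes tested that were higher was only 0.0168% to 0.367% over the settings, so 0 of 9 is near that share. With 1 tumor left out, 2.87% to 3.55% of all genes tested were lower. EGFR changed sign without HiGI tumor 16 (0.06) and without LoGI tumor 28 (0.02), and ran from -0.16 to 0.06 with 1 tumor left out, without a call in any setting. No other gene changed sign. Scaling by size factors or by the upper quartile changed no call. No paired analysis was possible because the tumors carry individual numbers that are not shared between diets. The alternatives for other pathway genes were not run, since human symbols were not looked up. AREG and BTC had only 53 and 27 reads in all.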
